A study of Mus musculus with 11 samples.

Results

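The genes described here are 9 histone genes of the mouse: the macroH2A genes H2afy and H2afy2, the H2A.Z genes H2afz and H2afv, the H2A.X gene H2afx, the H3.3 genes H3f3a and H3f3b, the CENP-A gene Cenpa, and Hist2h2be, an H2B gene. They were chosen by name with results of these siRNA comparisons already known, as variant histones with polyadenylated transcripts plus Hist2h2be, and they are 9 of the 54838 genes in the files. All 9 had more than 1 CPM (reads of a gene scaled to the total of its library) in at least 4 libraries, the filter that 16073 genes passed. Hist2h2be passed through CMTR1 siRNA libraries alone, since no control library was above 1 CPM, so its groups had to differ in that respect. Because the choice of members used these comparisons, their changes are given as a description, with no p-value. Calls of members by the fit across all genes are reported, and they chose H2afy2 for a comparison with other genes. No conclusion about the members is drawn from these calls.

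RNA was sequenced from E14 mouse embryonic stem cells, grown on gelatin in a medium with LIF and taken 36 h after transfection. The groups were 3 libraries of a scramble control siRNA, 4 of CMTR1 siRNA 1 and 4 of CMTR1 siRNA 2, all from the same line with no other genotype. CMTR1 is the enzyme that methylates the ribose of the first transcribed nucleotide beside the mRNA cap. Ribosomal RNA was depleted from total RNA. Each library held 6738478 to 8382318 counted reads. Pairs of libraries of 1 group differed, as a chi-square per gene that counting alone would put near 1, by 1.31 (siRNA 1 libraries 3 and 4) to 2.94 (siRNA 1 libraries 1 and 3), and by up to 2.93 in siRNA 2 (libraries 2 and 3). With group means removed, libraries 1 and 2 and libraries 3 and 4 of a CMTR1 siRNA were more alike over genes (mean r -0.148 with siRNA 1 and -0.119 with siRNA 2) than libraries across that line (-0.425 and -0.44), a split seen in the data for which the labels give no batch. By the chi-square the split was less clear. In siRNA 1, libraries 2 and 4 (1.60) were closer than libraries 1 and 2 (1.77). In siRNA 2, libraries 1 and 4 (1.95) were closer than libraries 3 and 4 (2.17). The other pairs across the split had larger values than the pairs within it. Both CMTR1 siRNAs are compared with the same 3 control libraries, so their comparisons are not independent of each other.

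Core histones are made in S phase from intronless genes whose mRNAs end in a stem-loop, whereas most variant histones are made through the cell cycle from genes with introns and polyadenylated mRNAs. Variants replace core histones at particular places: macroH2A, which carries a large extra domain, in silent chromatin, H2A.Z at promoters, H3.3 at active genes and at repeats, and CENP-A at centromeres. In embryonic stem cells macroH2A is known to be scarcer than in differentiated cells.

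Cmtr1 itself, the gene that both siRNAs are directed to, had 21.3, 21.7 and 17.9 CPM in the control libraries, 21.1, 21.3, 16.2 and 18.0 in those of siRNA 1, and 15.6, 16.8, 16.5 and 19.5 in those of siRNA 2. The groups overlapped, so the level of this transcript does not check which libraries received which siRNA, and the groups are named here as the libraries are labelled. Its log2 fold change was -0.09 (SE 0.11) with siRNA 1 and -0.25 (SE 0.11) with siRNA 2, from 110 to 176 reads a library. The edgeR adjusted p-values were 0.743 and 0.144.

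The largest change with each siRNA, among the 8 members other than Hist2h2be, was that of a macroH2A gene. H2afy2, which encodes macroH2A2, had 24.8, 22.9 and 23.4 CPM under the control siRNA, 29.2, 31.4, 32.4 and 30.5 under siRNA 1 and 32.8, 36.3, 30.5 and 32.7 under siRNA 2. All 8 CMTR1 siRNA libraries lay above all 3 control libraries, and the 2 siRNAs overlapped each other. The means were 23.7 ± 0.942 (SD, n = 3), 30.9 ± 1.33 (n = 4) and 33.1 ± 2.39 (n = 4) CPM. The log2 fold change was 0.38 (SE 0.084) with siRNA 1 and 0.48 (SE 0.083) with siRNA 2, or 1.3-fold and 1.4-fold. Over 20 alternative settings these values ran from 0.36 to 0.42 and from 0.43 to 0.52. In bulk RNA, a different number of cells that express a gene and a different amount of its RNA per cell cannot be told apart.

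H2afy, which encodes macroH2A1, had 51.2, 48.8 and 47.7 CPM under the control siRNA, 59.4, 59.1, 55.9 and 59.5 under siRNA 1 and 49.4, 56.7, 50.2 and 52.6 under siRNA 2. With siRNA 1 all 4 libraries were above the control ones, and with siRNA 2 the ranges overlapped. Its log2 fold change was 0.25 (SE 0.065) with siRNA 1, 0.088 (SE 0.066) with siRNA 2 and -0.16 (SE 0.060) for siRNA 2 against siRNA 1, whose libraries also overlapped. The siRNA 1 value lay between 0.22 and 0.28 in the 20 alternatives, and the call at an adjusted p of 0.05 was lost with DESeq2 and without control library 2, control library 3 or siRNA 1 library 2. The siRNA 2 value ran from 0.044, without siRNA 2 library 2, to 0.12. H2afy had 348 to 475 reads a library and H2afy2 had 174 to 304. Counts per gene do not separate the splice forms of macroH2A1, so their proportions are not known from these values.

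Taken per kilobase of merged exon, H2afy made up 39.8, 40.5 and 39.4% of the sum of both macroH2A genes under the control siRNA, 39.3, 37.5, 35.5 and 38.4% under siRNA 1 and 32.5, 33.3, 34.5 and 33.9% under siRNA 2. H2afy2 was thus the more abundant of the pair on this scale in each library, and its part was larger with siRNA 1 than in the control libraries, by little in siRNA 1 library 1, and larger again with siRNA 2. The mean shares of H2afy were 39.9 ± 0.553%, 37.7 ± 1.62% and 33.5 ± 0.849% (SD, n = 3, 4 and 4), with no overlap between any of the groups. Control and siRNA 1 were barely apart, at 39.4% in control library 3 and 39.3% in siRNA 1 library 1. These shares rest on 174 and 197 reads of H2afy2, and differences in share were not tested. Divided by the length of the longest protein-coding transcript instead, the means were 68.8, 66.8 and 62.7%, so which gene of the pair is more abundant depends on the length used. The order of the libraries is the same with any fixed lengths, so this alternative does not test it.

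**Figure D1:**
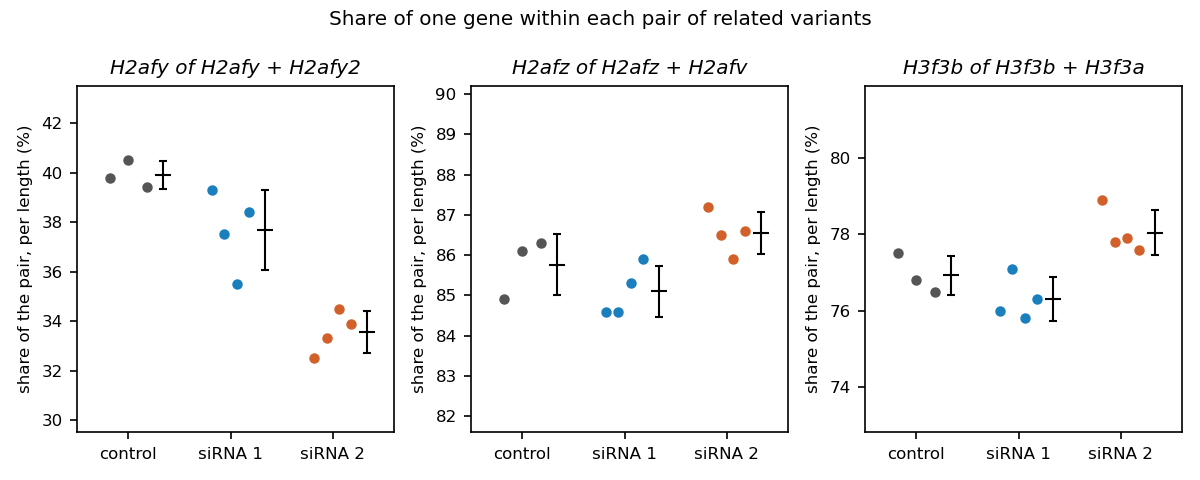
Share, in percent, of 1 gene in the summed CPM per kilobase of merged exon of its pair, with 1 point for each library of control siRNA, CMTR1 siRNA 1 and CMTR1 siRNA 2 and bars of the mean ± SD beside them; the axes do not start at 0. The share of H2afy falls from 39.4 to 40.5% in the control libraries to 32.5 to 34.5% with siRNA 2.

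H3.3, the histone H3 variant that is deposited outside replication, comes from H3f3a and H3f3b, whose coding sequences of 411 bases each differ at many places (316 bases or 76.9% identical) and give the same protein. H3f3b had 351, 364 and 325 CPM under the control siRNA, 341, 373, 378 and 368 under siRNA 1 and 409, 393, 379 and 421 under siRNA 2. The siRNA 2 libraries were all above those of both other groups, and siRNA 1 overlapped the control. The log2 fold change was 0.075 (SE 0.047) with siRNA 1, 0.21 (SE 0.047) with siRNA 2 and 0.13 (SE 0.044) for siRNA 2 against siRNA 1. With siRNA 2 it lay between 0.16 and 0.24 in the 20 alternatives, and the call was lost without control library 3. With siRNA 1 it ran from 0.031 without control library 3 to 0.11 without control library 2. H3f3b had 2296 to 3408 reads a library, and its spread within groups (coefficient of variation 4.89%) was larger than counting alone gives (1.88%).

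H3f3a had 120, 129 and 118 CPM under the control siRNA, 126, 131, 142 and 135 under siRNA 1 and 129, 132, 127 and 143 under siRNA 2. Most CMTR1 siRNA libraries were above the control ones, but each group overlapped control library 2. Its log2 fold change was 0.13 (SE 0.055) and 0.12 (SE 0.054) with siRNA 1 and siRNA 2, and it was called in neither. H3f3b made up 76.5 to 77.5% of the H3.3 pair per kilobase in the control libraries, 75.8 to 77.1% with siRNA 1 and 77.6 to 78.9% with siRNA 2, so per kilobase H3f3b was the larger source in all 11 libraries, and its share was above that of both other groups in all siRNA 2 libraries.

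H2A.Z is encoded by H2afz and H2afv, with coding sequences of 387 bases each that are 79.1% identical and proteins that are not the same. H2afz had 306, 295 and 294 CPM under the control siRNA, 294, 298, 306 and 299 under siRNA 1 and 299, 303, 283 and 290 under siRNA 2. The 3 groups covered nearly the same range. The means were 298 ± 6.67, 299 ± 4.95 and 294 ± 8.90 CPM (SD, n = 3, 4 and 4), and the log2 fold changes were 0.0057 (SE 0.044) and -0.022 (SE 0.043). The sign of the siRNA 1 value turned in some alternatives, where it ran from -0.018 to 0.025.

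H2afv, the scarcer H2A.Z gene, had 50, 43.8 and 42.9 CPM under the control siRNA, 49.4, 49.9, 48.6 and 45.0 under siRNA 1 and 40.2, 43.4, 42.9 and 41.1 under siRNA 2. Both siRNA groups overlapped the control libraries, but the siRNA 2 libraries were all below those of siRNA 1. Its log2 fold change was 0.081 (SE 0.069) with siRNA 1, -0.12 (SE 0.071) with siRNA 2 and -0.20 (SE 0.065) for siRNA 2 against siRNA 1. The last difference lay between -0.23 and -0.18 in the alternatives and was called in 11 of 20 of them. Against control the values ran from 0.041 to 0.15 with siRNA 1 and from -0.16 to -0.049 with siRNA 2. They were 0.15 and -0.049 without control library 1. H2afz made up 84.9 to 86.3% of its pair per kilobase in the control libraries, 84.6 to 85.9% with siRNA 1 and 85.9 to 87.2% with siRNA 2.

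H2A.X is the variant that is phosphorylated around DNA breaks. H2afx had 306, 324 and 319 CPM under the control siRNA, 314, 287, 305 and 309 under siRNA 1 and 321, 327, 294 and 297 under siRNA 2. The groups overlapped, and libraries differed within a group by more than the groups did, with a coefficient of variation of 4.32% where counting gives 2.06%. The log2 fold changes were -0.057 (SE 0.047) and -0.029 (SE 0.046). Cenpa, the gene of the centromeric H3, had 132, 130 and 125 CPM under the control siRNA, 123, 127, 127 and 128 under siRNA 1 and 126, 122, 117 and 134 under siRNA 2. Its groups overlapped too, with log2 fold changes of -0.032 (SE 0.052) and -0.048 (SE 0.052).

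Hist2h2be, an H2B gene known from olfactory neurons, was near the limit of what these libraries count. It had 5, 6 and 4 reads in the control libraries (0.635, 0.740 and 0.538 CPM), 7, 10, 5 and 10 under siRNA 1 (1.04, 1.25, 0.660 and 1.34 CPM), and 7, 6, 10 and 12 under siRNA 2 (0.994, 0.716, 1.35 and 1.48 CPM). Most CMTR1 siRNA libraries were above the control ones, and siRNA 1 library 3 and siRNA 2 library 2 lay within their range. The log2 fold changes, 0.73 (SE 0.42) and 0.81 (SE 0.41), rest on a few reads, and counting alone gives a coefficient of variation of 38.8% at this depth. It was called with neither siRNA.

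**Figure D2:**
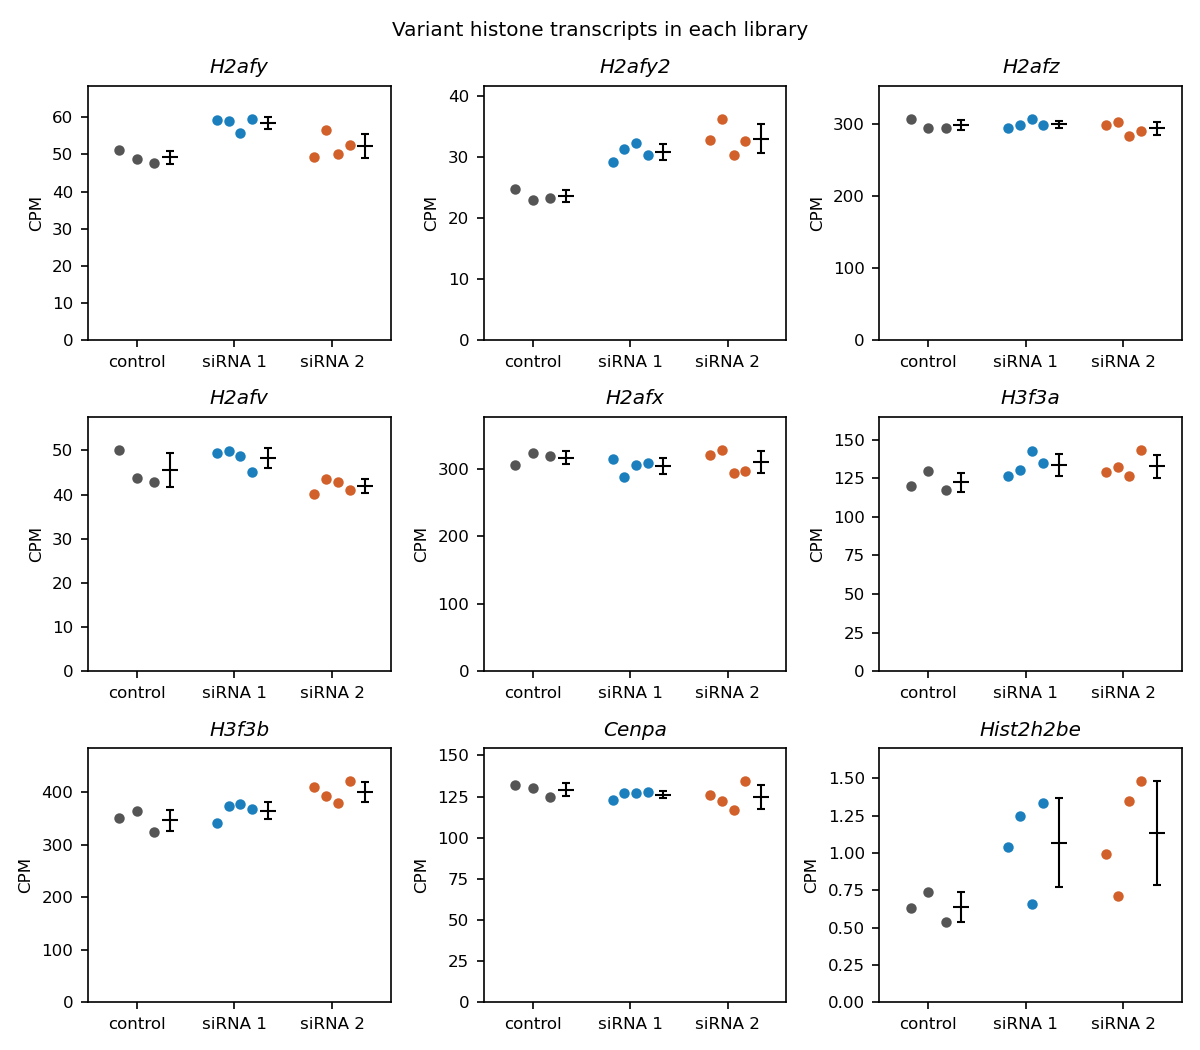
CPM of each of the 9 variant histone genes, with 1 point for each of the 11 libraries by group (control siRNA, CMTR1 siRNA 1, CMTR1 siRNA 2) and bars of the mean ± SD beside them. The CMTR1 siRNA libraries of H2afy2 sit at 29.2 to 36.3 CPM, all above the control libraries at 22.9 to 24.8.

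Counted over the members, 2 of 9 were called at an adjusted p of 0.05 by edgeR with siRNA 1 (H2afy and H2afy2, both higher), beside 4.67% of all genes tested, of which 2.71% were higher and 1.97% lower. With siRNA 2, 2 of 9 were called (H2afy2 and H3f3b, both higher), beside 9.72% of all genes, 6.17% higher and 3.55% lower. Between the siRNAs 1 of 9 was called (H2afv, lower with siRNA 2), beside 7.44%, 4.49% higher and 2.96% lower. The same genes had libraries that did not overlap the control ones, 2 of 9 with each siRNA, beside 15.5% and 19.4% of all genes. Between the siRNAs 2 of 9 did not overlap (H3f3b and H2afv), beside 11.8%. Nothing is read from these counts, because the members were chosen with them known.

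Over all genes, 435 were called higher and 316 lower with siRNA 1, but 346 and 400 with TMM factors and 199 and 322 with DESeq2. With siRNA 2, 991 were higher and 571 lower, against 728 and 734 with TMM factors and 409 and 549 with DESeq2. The balance of directions over the genome therefore depends on the scaling. The log2 fold changes of H2afy, H2afy2, H3f3a and H3f3b were above 0 in all 20 alternatives with either siRNA. That does not test the scaling, because it shifts all genes by little. With siRNA 1 the median log2 fold change of all genes was 0.0244, 0.0042 with TMM factors and 5e-04 with DESeq2. Most other alternatives keep the scaling. Leaving out control library 2, control library 3 or siRNA 1 library 2 moved the number called with siRNA 1 by more than 1.5 times, within 355 to 850. Leaving out control library 2, control library 3 or siRNA 2 library 1 did so with siRNA 2, within 807 to 1667, and leaving out siRNA 1 library 1, siRNA 1 library 2 or siRNA 2 library 1 did so between the siRNAs, within 724 to 1374.

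**Figure D3:**
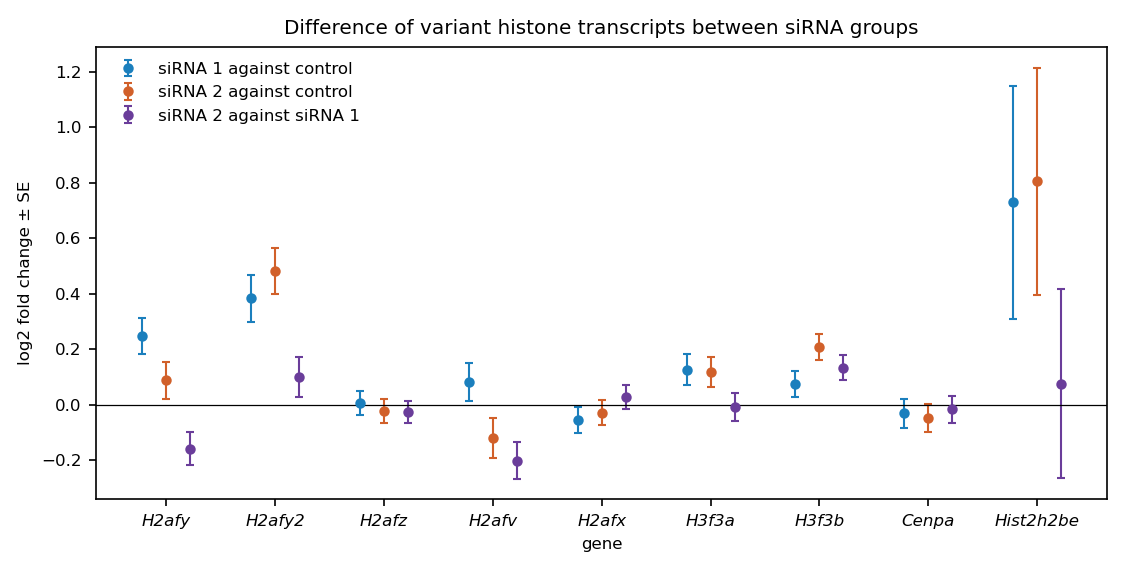
Log2 fold change of each of the 9 members for CMTR1 siRNA 1 against control, siRNA 2 against control and siRNA 2 against siRNA 1, with bars of 1 SE from the edgeR fit. H2afy2 lies at 0.38 and 0.48 with the siRNAs, and the bars of Hist2h2be are the widest.

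Levels between genes were compared per kilobase of merged exon in the control libraries. H2afx was highest at 228 CPM per kilobase, followed by H2afz (168), H3f3b (116), H3f3a (34.9), H2afv (27.9), Cenpa (22.0), H2afy2 (10.9), H2afy (7.23) and Hist2h2be (0.243). Among 13222 protein-coding genes tested these stood at the percentiles 99.4, 99.0, 98.3, 90.8, 87.7, 83.6, 67.3, 56.3 and 3.41. No neighbours in this order overlapped over the control libraries, and all 11 libraries gave the same order on this scale. By merged exons the macroH2A genes were thus in the middle of the protein-coding range, and H2afx, H2afz and H3f3b near its top. Percentiles by transcript length were not computed. With the length of the longest protein-coding transcript H2afz came first (279), Cenpa rose to 88.0 and H2afy to 24.1, above its neighbour H2afy2 at 10.9, and 8 of 11 libraries gave the order of control library 1. Of the 75-base words of H2afz, 28.8% also occur in other genes, mostly Tmcc1, which does not overlap it. Levels were not corrected for reads that align to more than 1 place, so the order of H2afx and H2afz is not settled.

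**Figure D4:**
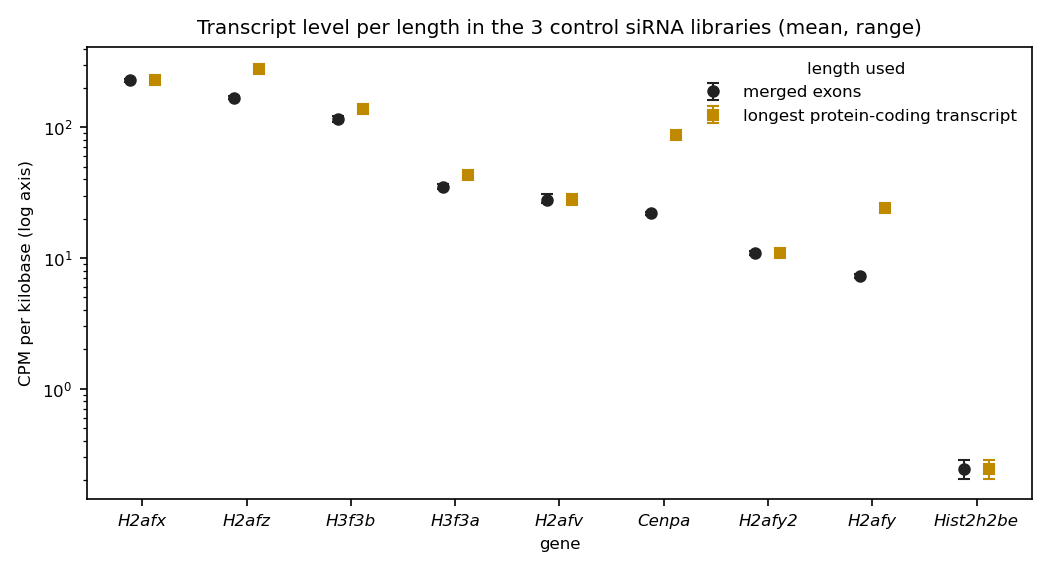
Level of each member in the 3 control siRNA libraries, in CPM per kilobase on a log axis, as the mean with bars of the range over libraries, by merged exons (circles) and by the longest protein-coding transcript (squares). H2afx, H2afz and H3f3b stand at 116 to 228 by merged exons and Hist2h2be at 0.243.

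Across the 11 libraries with each group's mean removed, the 36 pairs of members correlated at r = -0.68 (H2afz and Hist2h2be) to 0.902 (H2afz and H2afy2). H3f3b and Cenpa stood at 0.83, and H3f3a and H3f3b at 0.797. Without removing the group means, r was -0.566, 0.0864, 0.167 and 0.717 for these pairs in the same order. These values share libraries, depth and the scaling to library size. For Hist2h2be, counting alone gives a coefficient of variation of 38.8%, above its spread within groups (26.6%), so its r values say little about the gene.

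By position the members are spread over the genome (GRCm38): H2afy at chr13:56073619-56136361, H2afy2 at chr10:61738665-61784147, H2afz at chr3:137864487-137866922, H2afv at chr11:6427229-6444443, H2afx at chr9:44334694-44336077, H3f3a at chr1:180800832-180813943, H3f3b at chr11:116021912-116027962, Cenpa at chr5:30666777-30674830 and Hist2h2be at chr3:96221119-96223738. H2afx and Hist2h2be have 1 exon, like core histone genes, and the other members have 4 to 9 in their longest protein-coding transcript. Genes on the opposite strand overlap exons of H3f3a over 798 bases, H2afy over 501, H2afy2 over 233 and H2afx over 141. The libraries were directional, but the strand setting of the counting is not given in the sources used here, so reads of those genes in the counts were not tested. Of the 75-base words of each member's exons, 28.8% of H2afz and 23.1% of H3f3a also occur in other annotated genes, and 0.736 to 8.85% of H2afy, H2afy2, H2afx, H3f3b and Cenpa do. H2afv and Hist2h2be shared none. Most shared words of H2afy (356 of 356), H2afy2 (161 of 186), H2afx (67 of 90) and H3f3a (570 of 857) were with a gene overlapping on the opposite strand. Such words lie at 1 place, so these shares do not measure reads lost to multiple alignment. Of H2afz, 595 of 614 shared words were with Tmcc1. No exon of another gene overlaps those of H2afz, so these words occur at more than 1 place. In 10 files, reads aligned to more than 1 place are listed apart from the counts, and the file of siRNA 2 library 4 has no such line.

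The stem-loop that ends core histone mRNAs was looked for in the 3′ UTRs as a 6-base arm starting with GG, a 4-base loop starting with TT and the complementary arm, 16 bases in all. It was found in 37 of 42 core histone genes with an annotated 3′ UTR (88.1%) and in 94 of 20983 protein-coding genes (0.448%). Among the members H2afx alone had it, at chr9:44335240-44335255 on the plus strand, 46 bases after the stop codon and 822 bases before the transcript's end. Hist2h2be did not have it in its annotated 3′ UTR. The H2afx sequence is shown with the form most frequent in core histone genes (21 genes), to compare a variant histone with them, with the arms in capitals.
H2afx: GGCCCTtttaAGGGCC
core histone form: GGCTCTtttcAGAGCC
A poly(A) signal (AATAAA or ATTAAA) lay within the last 50 bases in 8 of 9 members, all but H2afy, in 11 of the 42 core histone genes (26.2%) and in 80.8% of protein-coding genes. H2afx therefore carries both kinds of end in its annotated transcript. The match is of letters, and which end was used in these cells was not tested.

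Promoters, as 250 bases before to 50 after the start, were taken from RefSeq (GRCm38.p6) and matched 7 of the 9 members; H2afx and Hist2h2be had no entry. Those of 3 members, chosen after their values were seen, are shown, all on the minus strand: H2afy at chr13:56135501-56135800, H2afy2 at chr10:61783815-61784114 and H3f3b at chr11:116024455-116024754. Capitals mark CCAAT or its reverse complement ATTGG.
H2afy: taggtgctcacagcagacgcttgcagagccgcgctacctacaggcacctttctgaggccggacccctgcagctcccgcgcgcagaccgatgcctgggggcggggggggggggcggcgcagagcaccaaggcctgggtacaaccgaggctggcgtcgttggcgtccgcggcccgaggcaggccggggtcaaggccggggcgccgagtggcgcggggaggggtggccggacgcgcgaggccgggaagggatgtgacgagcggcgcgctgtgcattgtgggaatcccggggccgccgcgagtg
H2afy2: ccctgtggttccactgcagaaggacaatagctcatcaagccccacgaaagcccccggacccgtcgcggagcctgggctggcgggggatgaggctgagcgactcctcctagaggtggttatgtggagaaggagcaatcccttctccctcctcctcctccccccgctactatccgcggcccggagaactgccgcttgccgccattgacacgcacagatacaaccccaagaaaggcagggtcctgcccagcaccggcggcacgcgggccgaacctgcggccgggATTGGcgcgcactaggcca
H3f3b: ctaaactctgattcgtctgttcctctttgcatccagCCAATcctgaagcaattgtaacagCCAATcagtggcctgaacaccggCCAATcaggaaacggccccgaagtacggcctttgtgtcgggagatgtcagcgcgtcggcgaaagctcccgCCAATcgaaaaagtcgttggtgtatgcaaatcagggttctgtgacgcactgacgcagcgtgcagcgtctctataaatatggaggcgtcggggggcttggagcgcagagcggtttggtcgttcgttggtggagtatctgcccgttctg
Searched on both strands, CCAAT occurred in 37.4% of the 32544 promoters in the table, and 3 or more times in 3.35%. H3f3b had 4 matches, H2afv 4, H2afz 3, Cenpa 2, H2afy2 1 and H3f3a 1, and H2afy had none in this window. H3f3b also had TATAAA 27 bases before the start, a motif of 13.6% of promoters, and H3f3a had 6 matches to GGGCGG, which 35.9% of promoters hold at least once and 10.8% 3 or more times. The H2afy promoter was the richest in G and C of the 3 shown (74.3%, against 65.7% for H2afy2, 55% for H3f3b and a median of 53% over the table). A match of letters is not a bound site.

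Genes that act on these variants were described by lists, with edgeR adjusted p-values over all genes tested and medians beside those of all genes (0.024 with siRNA 1 and 0.029 with siRNA 2, log2). Of all genes tested, 4.67% were called with siRNA 1, 9.72% with siRNA 2 and 7.44% between the siRNAs. The counts of this and the later lists stand beside these shares and were not tested against them. Of 7 macroH2A partners, none was called with siRNA 1 (unadjusted p below 0.05 for 0) and 1 was lower with siRNA 2. It was Atrx, a chromatin remodeller that also acts in H3.3 deposition, at -0.18 (SE 0.052, adjusted p = 0.0215), with ranges that overlapped. The medians were -0.032 and 0.012, the latter below 0 with TMM factors and DESeq2. Of 8 genes of H3.3 deposition, none was called with siRNA 1 (unadjusted p below 0.05 for 1) and Atrx alone was lower with siRNA 2, with medians of -0.026 and -0.050. That call was lost without control library 2 or 3 or without siRNA 2 library 1 or 2, where neither list had a gene called; its log2 fold change ran from -0.24 to -0.13 over the alternatives. Without control library 1, 2 genes of H3.3 deposition were called, and without control library 3 the siRNA 2 median of that list was above 0.

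Of 26 genes of the complexes that exchange H2A.Z, 1 rose with siRNA 1, and 2 rose and 1 fell with siRNA 2, with medians of 0.0026 and -0.011, the former below 0 with TMM factors and DESeq2. Morf4l1, a subunit of the TIP60 complex, was higher by 0.24 (SE 0.051, adjusted p = 0.00239) and 0.36 (SE 0.051, 3e-06), in 4 of 4 libraries above the control ones with each siRNA. Actr6, of the SRCAP complex, was higher with siRNA 2 by 0.39 (SE 0.10, adjusted p = 0.0125), in 4 of 4 libraries, a call lost with DESeq2 and without control library 3. Actl6a was lower with siRNA 2 at -0.19 (SE 0.054, adjusted p = 0.0186), in 4 of 4 libraries, a call lost without control library 2 or 3 or siRNA 2 library 1. The list had 1 gene called with siRNA 2 without control library 3, and 5 without siRNA 2 library 3. Of 17 genes of CENP-A loading none was called by edgeR, DESeq2 or exactTest with either siRNA, and 1 and 0 had an unadjusted p under 0.05; the medians were 0.033 and 0.052. The H2A.X list had 13 tested genes that add a phosphate to it, remove one (Eya1, Eya3, Eya4, Ppm1d and Ppp4c) or act at a phosphorylated form, so its counts and medians mix opposed activities. Trp53bp1, a reader, was higher with both siRNAs at 0.17 (SE 0.048, adjusted p = 0.0248 and 0.0171). Atm, a kinase, was lower with siRNA 1 at -0.20 (SE 0.050, adjusted p = 0.0136). Each was so in 4 of 4 libraries. Both Trp53bp1 calls were lost with DESeq2 and without control library 2 or 3. That of siRNA 1 was also lost with TMM factors and without siRNA 1 library 1 or 2, and that of siRNA 2 without siRNA 2 library 1. The Atm call was lost without control library 1 or 2 or siRNA 1 library 2. With siRNA 1 the list had 0 genes called without control library 2 or siRNA 1 library 2 and 1 without control library 1, control library 3 or siRNA 1 library 1, and with siRNA 2 it had 0 without control library 2, control library 3 or siRNA 2 library 1. The list's medians, 0.013 and 0.0024, were below 0 with TMM factors and DESeq2.

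Of 16 general histone chaperones, 1 was higher and 1 lower with each siRNA, with medians of -0.0012 and 0.0014, both below 0 with TMM factors and DESeq2. Rbbp7, a histone-binding protein of several chromatin complexes, was higher by 0.42 (SE 0.051, adjusted p = 5.46e-07) and 0.49 (SE 0.051, 6.85e-09), above the control libraries in 4 of 4 libraries with each. Nap1l1, a chaperone of H2A and H2B, was lower at -0.18 (SE 0.047, adjusted p = 0.0184) and -0.25 (SE 0.047, 0.000357), in 4 of 4 libraries with each, and its siRNA 1 call was lost without control library 1 or 2 or siRNA 1 library 1 or 2, which left 1 chaperone called. Of 11 factors that process histone pre-mRNA ends, none was called with siRNA 1 (unadjusted p below 0.05 for 1) and Sympk was lower with siRNA 2 at -0.18 (SE 0.048, adjusted p = 0.013), in 4 of 4 libraries but not called without control library 3, with medians of -0.045 and -0.024. Of 13 other variant or replication-independent histones, 7 were tested, none was called with siRNA 1 (unadjusted p below 0.05 for 2), and Hist1h2ba and Hist1h2aa were higher with siRNA 2, with medians of 0.044 and 0.090; the former was below 0 without control library 3 and without siRNA 1 library 2. Leaving out 1 library also turned the sign of a median of the lists of H2A.Z exchange (siRNA 1), H2A.X (both siRNAs), macroH2A partners (siRNA 2) and chaperones (both). DESeq2 and exactTest likewise called none of these lists' genes where edgeR called 0.

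**Figure D5:**
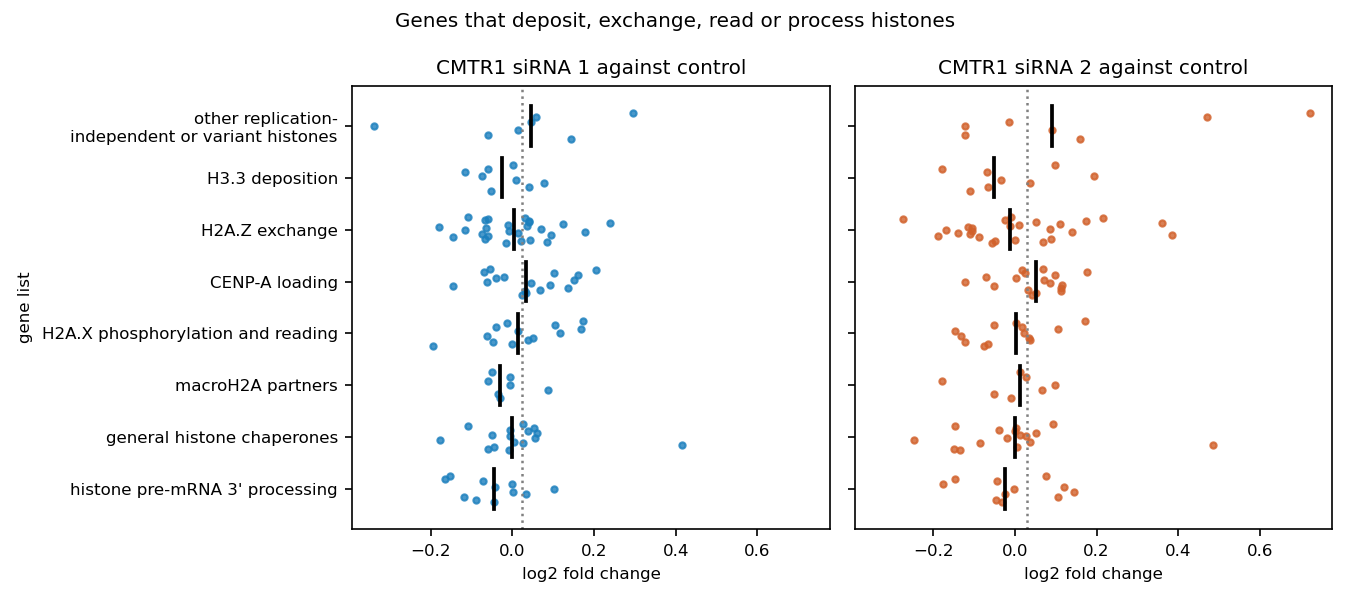
Log2 fold change of each tested gene in the lists of histone deposition, exchange and processing factors, 1 point a gene, for CMTR1 siRNA 1 and siRNA 2 against control, with a bar at each list's median and a dotted line at the median of all genes tested. Rbbp7 stands highest among the chaperones at 0.42 and 0.49.

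Hist1h2ba and Hist1h2aa, the testis H2B and H2A, lie 305 bases apart on opposite strands. Hist1h2ba had 10.0, 9.50 and 9.56 CPM under the control siRNA, 10.2, 13.3, 12.7 and 11.1 under siRNA 1 and 15.3, 17.9, 16.3 and 14.5 under siRNA 2. Its siRNA 2 libraries were all above those of both other groups, with a log2 fold change of 0.72 (SE 0.12, adjusted p = 5.93e-05) against control and 0.43 (SE 0.11, adjusted p = 0.00949) against siRNA 1. Hist1h2aa was higher by 0.47 (SE 0.11, adjusted p = 0.00487), in 4 of 4 libraries, and by 0.41 (SE 0.11, 0.00982) against siRNA 1. The Hist1h2aa call against control was lost without control library 3. Of 46 tested core histone genes, none was called with siRNA 1 by edgeR, DESeq2 or exactTest (unadjusted p below 0.05 for 3), 6 were lower with siRNA 2, and 10 were lower for siRNA 2 against siRNA 1, with medians of 0.022, -0.11 and -0.13; the siRNA 1 median was below 0 with DESeq2 and without control library 1. With siRNA 2 the count was 1 without control library 2, 2 without control library 3 and 11 without siRNA 2 library 2.

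The labelled cell type was checked by 12 embryonic stem cell markers, all past the filter, of which Pou5f1 was the most abundant at 419 to 507 CPM. Their summed CPM was 2215, 2352 and 2290 under the control siRNA, 1888, 1954, 2101 and 2046 under siRNA 1 and 2017, 2046, 2001 and 2079 under siRNA 2. The sums were lower in all CMTR1 siRNA libraries; 8 of 12 markers were called lower with siRNA 1 and 6 of 12 with siRNA 2, with medians of -0.28 and -0.22. With siRNA 1 the lowest adjusted p-values were those of Klf2 (-0.58, SE 0.073, 1e-06), Nanog (-0.57, SE 0.091, 5.44e-05) and Klf4 (-0.40, SE 0.074, 0.000356), each below the control libraries in 4 of 4. With siRNA 2 they were those of Esrrb (-0.55, SE 0.065, 6.84e-08), Klf4 (-0.61, SE 0.075, 1.47e-07) and Tfcp2l1 (-0.60, SE 0.096, 2.85e-05), again in 4 of 4. With siRNA 1 Esrrb (-0.34, adjusted p = 0.000528) and Tfcp2l1 (-0.38, adjusted p = 0.0106) were called but overlapped the control libraries, and the call of Tfcp2l1 was lost with DESeq2 and without control library 2 or 3 or siRNA 1 library 1 or 2. The split of libraries 1 and 2 from 3 and 4 shows here: Nanog had 49.7, 49.1, 69.7 and 62.8 CPM under siRNA 1 and 47.3, 53.8, 68.0 and 66.1 under siRNA 2. Over all the cell type markers tested, 12 of 39 had these libraries apart in the same direction with both siRNAs, beside 9.77% of the 16073 genes past the filter. In opposite directions they were apart for 0 of the 39 markers, beside 7.93% of all genes. Of the 9 members, 0 were apart in the same direction and 1, H2afz, in opposite directions. With the split as a block in the edgeR fit, an alternative chosen after seeing the data, 8 and 6 of the 12 embryonic stem cell markers were called lower as before. With siRNA 1, 4 neural markers were called in place of 1.

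Of 8 neural markers 6 were tested. Nes was higher at 0.26 (SE 0.067, adjusted p = 0.0152) and 0.45 (SE 0.066, 6.23e-06) and Map2 with siRNA 2 at 0.36 (SE 0.12, adjusted p = 0.0455), in 4 of 4 libraries each. The Nes call with siRNA 1 was lost with DESeq2 and without control library 2 or siRNA 1 library 1 or 2, and that of Map2 in 13 of 20 alternatives. The summed CPM of the list was 164 to 166 in control, 180 to 198 in siRNA 1 and 177 to 210 in siRNA 2 libraries, higher in libraries 1 and 2 than in 3 and 4 of each siRNA, Nes being the most abundant at 57.1 to 92.3 CPM. Of 10 fibroblast markers 9 were tested and none was called with siRNA 1 (unadjusted p below 0.05 for 1). With siRNA 2 Col1a1 (0.75, adjusted p = 6.42e-05) and Dcn (1.13, 0.00209) were higher and Col3a1 (-1.42, 0.018) lower, each in 4 of 4 libraries, but Col3a1 had 2 to 6 reads in these libraries. The Dcn call was lost with DESeq2, and that of Col3a1 with DESeq2 and without control library 1 or siRNA 2 library 2 or 4. The list's summed CPM ran over 54.0 to 64.5, 55.1 to 67.2 and 64.0 to 74.3 in the control, siRNA 1 and siRNA 2 groups. Of the 10 mesendoderm and 7 trophectoderm markers, 6 each were tested and none was called by edgeR, DESeq2 or exactTest, except 1 trophectoderm marker with siRNA 2 without control library 1; an unadjusted p below 0.05 was found for 0 and 1, and for 2 and 2. No marker was without reads, and the part of these genes in the changes of H2afy2, H2afy and H3f3b was not tested.

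Cell cycle genes were described because core histones follow S phase. Of 20 S phase genes none was called with siRNA 1 (unadjusted p below 0.05 for 2), and E2f1 (-0.28, adjusted p = 0.0135), Cdt1 (-0.18, 0.0143) and Ung (-0.18, 0.031) were lower with siRNA 2, in 4 of 4 libraries each, with medians of -0.047 and -0.083. That count was 1 without control library 2 or siRNA 2 library 4, 0 without control library 3, 5 with TMM factors and 7 with DESeq2. The E2f1 call was lost without control library 2 or 3, that of Cdt1 without control library 3 or siRNA 2 library 4, and that of Ung without control library 2 or 3 or siRNA 2 library 1 or 4 and with the replicate number as a block. Of 20 G2/M genes none was called with siRNA 1 (unadjusted p below 0.05 for 0), and Hmmr (0.23, adjusted p = 0.00204) and Ccna2 (0.15, 0.0479) were higher with siRNA 2, in 4 of 4 libraries each, with medians of 0.041 and 0.026, the latter below 0 with DESeq2. Ccna2 was called in 7 of 20 alternatives. DESeq2 and exactTest called none of either list with siRNA 1.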

How the data were processed

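The values are counts that the authors deposited: whole numbers of reads for each of 54838 Ensembl genes, 1 file for each of 11 libraries. Per the methods, Cutadapt removed adaptors, STAR placed the reads on GRCm38, Picard took out PCR duplicates and featureCounts did the counting, while the closing summary lines of 10 files have the layout of HTSeq and were set aside. Of the gene IDs, 54809 were in GENCODE M21, which gave symbols, exons and 3′ UTRs. Genes with more than 1 CPM in at least 4 libraries were fitted with edgeR 4.0.16 (R 4.3.3, limma 3.58.1) by quasi-likelihood, with 3 groups in 1 fit and libraries scaled by total counts, and called at a Benjamini-Hochberg adjusted p of 0.05. SEs come from the fold change and the F statistic. Alternatives were TMM factors, total counts without Gm26917, DESeq2 1.42.0, edgeR's exactTest, no filter, more than 1 CPM in all libraries, only the 2 groups compared, the replicate number as a block, libraries 1 and 2 against 3 and 4 as a block (chosen after seeing the data) and each library left out in turn. Levels used merged exons or the longest protein-coding transcript. Log2 CPM had a prior count of 2. The fit was tested on simulated data. Sequences were handled with Python 3.11.15, pandas 2.3.3 and Biopython 1.88.

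Named genes are the 9 members, Cmtr1, the genes called in each list (at most the 3 with the lowest adjusted p for each siRNA) and the 5 abundant protein-coding genes most like H2afy2. H2afy2 was taken for this because it was the member called with both siRNAs. Members and lists were chosen with earlier results of these data known. The methods state 3 biological replicates, but 4 libraries are deposited for each CMTR1 siRNA, and which libraries are separate cultures is not stated, so p-values may measure technical spread. No count of a library was left out.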

Additional observations from a re-analysis of the deposited data

Results flagged for a closer look

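Among the 18 groups of 4 libraries looked at (9 members and 2 CMTR1 siRNAs), 2 held a library far from the others, where chance gives about 1 in 20. For H2afy, siRNA 1 library 3 (55.9 CPM) was below the other 3 (59.1 to 59.5 CPM), a gap of 0.889 of the group's range. For Cenpa, siRNA 1 library 1 (123 CPM) was below the other 3 (127 to 128 CPM), with a gap of 0.849 of the range. H2afv was flagged for its log2 fold change of -0.20 (SE 0.065) for siRNA 2 against siRNA 1 in the edgeR fit. It was called in 11 of 20 alternatives. As a member chosen with these comparisons known, it is listed as a description only.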

How the results depend on the processing

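The log2 fold changes of the members moved by less than the spread between libraries in all alternatives run. Counts of genes called moved by more than 1.5 times with DESeq2, to 958 with siRNA 2 and 740 between the siRNAs. Members called were 1 with siRNA 1 under DESeq2 and, between the siRNAs, 0 under DESeq2 and 2 under exactTest, with more than 1 CPM in all libraries or with libraries 1 and 2 against 3 and 4 as a block. With TMM factors or DESeq2, H2A.Z exchange had 2 genes called with siRNA 1 (2 also when only the 2 groups were fitted), H2A.X genes 1, and chaperones 4 with siRNA 2; H2A.X genes with siRNA 2 were 0 under DESeq2. By the longest transcript, the levels were 279 for H2afz, 138 for H3f3b, 43.1 for H3f3a, 88.0 for Cenpa and 24.1 for H2afy, which follows from the shorter length. The cause of the other shifts was not tested.

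With each library left out in turn, genes called ran from 355 to 850 with siRNA 1, 807 to 1667 with siRNA 2 and 724 to 1374 between the siRNAs, and members called from 1 to 2, 1 to 2 and 0 to 2. Genes called in lists ran, with siRNA 2, from 1 to 2 for other variants, 0 to 2 for H3.3 deposition, 1 to 5 for H2A.Z exchange, 0 to 1 for H2A.X, 0 to 1 for macroH2A partners, 2 to 3 for chaperones and 0 to 1 for 3′ processing. With siRNA 1 they ran from 0 to 2 for H2A.X and 1 to 2 for chaperones. With the replicate number as a block, 840, 1486 and 1242 genes were called. Libraries of the same number correlated at a mean r of 0.0107 (10 pairs) against -0.00357 for 30 other pairs, a mean that does not show the split of libraries 1 and 2 from 3 and 4 within each CMTR1 siRNA. Between the siRNAs, the mean r was 0.0284 over 8 pairs on the same side of it and -0.0284 over 8 pairs across it. With that split as a block, chosen after seeing the data, 982, 1783 and 1366 genes were called. Depth limits Hist2h2be, with 4 to 12 reads a library.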

Other observations

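The genes whose log2 CPM over the 11 libraries was most like that of H2afy2, of 5905 abundant protein-coding genes, were Mapk6, Tjp1, Rbbp7, Rac1 and Spred3, with Pearson r of 0.985, 0.969, 0.967, 0.949 and 0.946. Spearman's rho was 0.945, 0.936, 0.973, 0.955 and 0.764. Without the 2 libraries farthest from the median of H2afy2 (control libraries 2 and 3) r was 0.967, 0.969, 0.918, 0.907 and 0.886, and with each group's mean removed it was 0.89, 0.748, 0.706, 0.643 and 0.462. The same 5 came first with TMM factors, an alternative chosen after seeing the data. The points share libraries and depth, the genes were picked as the highest of 5905, and the values are a description with no p.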
